A study of Mus musculus with 2 samples.

Results

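The hedgehog and PTHrP signalling genes of the fetal mouse mandible were compared between a wild-type sample and a sample that forms no skeletal muscle. The 10 genes were Ihh, Shh, Ptch1, Smo, Gli1, Gli2, Gli3, Hhip, Pthlh and Pth1r, taken by name from the platform annotation of the array. Of these, 9 had a probe set of their own, 1 each, and 8 lay above the floor described below, out of 19938 genes with a probe set of their own and 10393 above the floor. Pthlh, which encodes the ligand PTHrP, had no probe set in the annotation used here and was not analysed. Mandibles were collected at E18.5 (embryonic day) and total RNA was hybridised to Affymetrix arrays, which report the brightness of a set of short probes as 1 log2 value per probe set. One array was made from a BALB/c wild-type mandible and 1 from a BALB/c mandible null for Myf5 and MyoD, so both groups share strain, age and tissue. Myf5 and MyoD commit cells to the skeletal muscle lineage. The null alleles act from the start of development, so the sample models a jaw that never had skeletal muscle and not one that lost it. How many embryos each RNA sample holds, and whether they were pooled, is not given here by the sources.

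Hedgehog ligands bind the receptor Ptch1, which otherwise holds the membrane protein Smo inactive, and active Smo lets the GLI transcription factors switch on target genes. Ptch1, Gli1 and Hhip are themselves such targets, so their transcripts are commonly read as a gauge of hedgehog activity. In growing cartilage, Ihh from prehypertrophic chondrocytes raises PTHrP, which acts through Pth1r to keep chondrocytes proliferating, while in the jaw Shh comes mainly from dental and oral epithelium.

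All 8 measured genes were higher in the double knockout, by 1.11-fold to 1.64-fold, and none reached 2-fold. Shh differed most, followed by the ligand-binding antagonist Hhip and the PTHrP receptor Pth1r. Ptch1, Smo, Gli1 and Gli3 lay close together at 1.26-fold to 1.27-fold, and Gli2 differed least. Ihh lay below the floor on both arrays. With 1 array per genotype there is no test between genotypes, no replicate error and no p-value, and each difference describes these 2 arrays.

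The starts of transcription of the hedgehog targets Hhip and Ptch1 and of Gli2 are shown first, because GLI factors act through DNA sites. The windows run from 250 bases before to 50 after the start of transcription in RefSeq on GRCm38.p6, and are printed on the strand of the gene. Of the 10 genes, 8 had at least 1 window in the table used, 10 windows in all, with 3 for Pth1r; Shh and Gli1 had none. Capitals mark the cAMP response element in Hhip, the GC box in Ptch1 and the GLI core, in reverse orientation, in Gli2. The Hhip window is chr8:80057959-80058258 (minus strand), the Ptch1 window chr13:63565686-63565985 (minus strand) and the Gli2 window chr1:119053570-119053869 (minus strand).
Hhip: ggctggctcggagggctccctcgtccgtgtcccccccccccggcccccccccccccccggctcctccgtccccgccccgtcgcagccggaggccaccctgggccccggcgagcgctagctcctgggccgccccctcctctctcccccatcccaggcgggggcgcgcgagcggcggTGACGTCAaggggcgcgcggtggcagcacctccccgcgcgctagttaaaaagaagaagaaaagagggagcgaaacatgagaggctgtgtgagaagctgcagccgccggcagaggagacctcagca
Ptch1: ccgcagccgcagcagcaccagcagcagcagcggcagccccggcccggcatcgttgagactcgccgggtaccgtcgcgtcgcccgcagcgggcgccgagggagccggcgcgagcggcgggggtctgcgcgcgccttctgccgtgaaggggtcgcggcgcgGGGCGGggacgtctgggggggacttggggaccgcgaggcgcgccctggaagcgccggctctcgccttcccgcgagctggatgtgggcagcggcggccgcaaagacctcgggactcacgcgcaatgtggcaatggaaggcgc
Gli2: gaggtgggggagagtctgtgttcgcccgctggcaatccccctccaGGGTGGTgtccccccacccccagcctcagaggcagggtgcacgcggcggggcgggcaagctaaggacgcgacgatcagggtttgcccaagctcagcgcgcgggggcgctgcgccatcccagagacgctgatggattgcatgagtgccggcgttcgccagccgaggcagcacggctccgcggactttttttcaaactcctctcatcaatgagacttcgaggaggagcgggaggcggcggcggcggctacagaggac

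5 motifs are described, each read on both strands and chosen with the sequences at hand. The GLI site GACCACCCA was in 0 of the 10 windows and in 0.253% of all 32851 windows. Its core ACCACCC, which lies within the GLI site, was in 1 window, that of Gli2, starting 205 bases before the start of transcription, and in 4.61% of all windows. The palindromic cAMP response element TGACGTCA, to which CREB factors bind, was in the Hhip window alone, 75 bases before the start, and in 1.79% of all windows. The GC box GGGCGG was in 8 of the 10 windows, those of Ihh, Gli2, Gli3, Hhip, Ptch1 and Pthlh and 2 of the 3 of Pth1r, against 35.7% of all windows. The TATA box TATAAA was in 0 of the 10 and in 13.6% of all. The windows of these genes held 54.3% to 76.3% G and C, where the median of all windows was 52.7%. The GC box holds only G and C and the TATA box only A and T, so their shares of all windows are not matched for base composition. These matches describe the letters of short windows and bear on no factor's binding.

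The deposited table held 35557 probe sets, across which the Pearson correlation of the 2 arrays was 0.980. The floor of each array was the median of its probe sets with an annotated gene, 6.18 on the wild-type and 6.19 on the double-knockout array, in log2 units, and a value under it was raised to it. Differences are double knockout minus wild type in log2 units, and their median over all measured genes was 0.10, so most genes were slightly higher in the double knockout. The only spread that could be measured was between the 2 brightest probe sets of a gene, whose log2 differences differed with an SD of 0.23 over 532 genes. This SD holds no variation between animals or hybridisations. Of the targeted genes, Myf5 was 6.31 in the wild type and below the floor in the double knockout, at 4.95, a difference of at least 1.09-fold. Myod1 was 7.14 and 6.49, 1.58-fold lower, and so still above the floor in the sample labelled null for it. Where its probes lie relative to the deleted part is not known here, so this signal does not check the label. Signals of different probe sets are not comparable as transcript levels, so genes are compared by their differences; brightness and summed signal, where given, describe array readings only.

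Among the ligands, only Shh was measured. Shh encodes the hedgehog ligand of epithelia, and in the developing jaw it marks the dental epithelium. Its signal was 8.55 in wild-type RNA and 9.26 in double-knockout RNA, both well above the floor. The log2 difference of 0.71 (1.64-fold higher) was 3.16 times the SD between probe sets, and 1.51% of measured genes had a larger one. After centring all genes on a median of 0, Shh was 1.53-fold higher. Ihh, the cartilage ligand, gave 5.73 and 5.77, both below the floor, so no fold is given and the arrays say nothing about a difference in it.

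**Figure D1:**
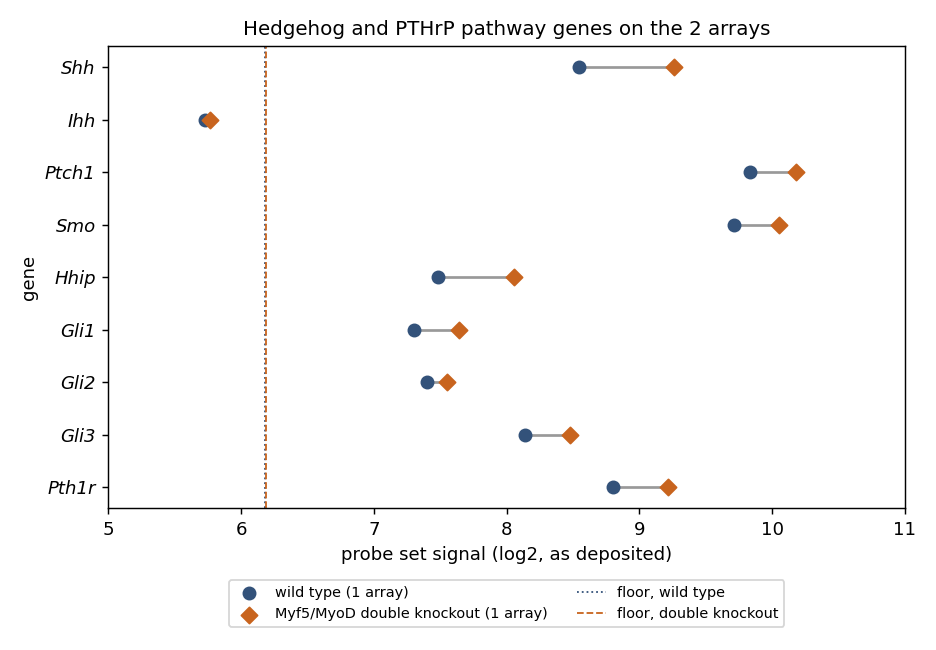
Probe set signal (log2, as deposited) on the wild-type array (circles) and the double-knockout array (diamonds) for the 9 genes with a probe set; vertical lines mark the floors at 6.18 and 6.19. Every diamond above the floor lies to the right of its circle, and both Ihh points lie left of the floor; positions of different genes are not comparable.

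The receptors were higher by similar amounts. Ptch1, the hedgehog receptor and itself a pathway target, gave 9.83 in wild-type RNA and 10.18 in double-knockout RNA. Its difference was 0.35 (1.27-fold), and 12.5% of measured genes had a larger one. Smo, the transducer that Ptch1 holds in check and not itself a classical target, gave 9.71 and 10.05, a difference of 0.34 (1.26-fold). The target Ptch1 and the non-target Smo therefore differed from the wild type by amounts that were 0.01 log2 units apart, far inside the SD between probe sets.

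Pth1r is the receptor for PTHrP and parathyroid hormone, present in chondrocytes and in cells of the osteoblast lineage. It gave 8.80 in wild-type RNA and 9.21 in double-knockout RNA, a difference of 0.41 (1.33-fold), with 8.72% of measured genes above it. Without a probe set for Pthlh, the ligand side of this arm could not be compared. The parathyroid hormone gene Pth and the related Pth2 and Pth2r were below the floor on both arrays.

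The GLI factors were all higher, and no 2 of their differences lay further apart than the SD between probe sets. Gli1, an activator whose own transcription follows hedgehog signalling, gave 7.30 and 7.64, a difference of 0.34 (1.26-fold). Gli3, the main repressor of the pathway when no ligand is present, gave 8.13 and 8.48, also 0.34 (1.27-fold). Gli2, the main activator at the start of a hedgehog response, gave 7.40 and 7.55. Its difference of 0.15 (1.11-fold) lay inside the SD between probe sets, and 39.3% of measured genes had a larger one. The activator Gli1 and the repressor Gli3 were thus higher by the same amount to within 0.01 log2 units.

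Hhip, a membrane protein that binds and sequesters hedgehog ligands, gave 7.48 in wild-type RNA and 8.06 in double-knockout RNA. The difference of 0.57 (1.49-fold) was 2.54 times the SD between probe sets, and 3.27% of measured genes had a larger one. Raising the floor to the 75th percentile gave 0.32, because the wild-type value was then raised to the floor, and the fold is a lower bound. The 3 classical targets differed by 0.34 (Gli1), 0.35 (Ptch1) and 0.57 (Hhip), so Gli1 and Ptch1 were nearly equal and Hhip exceeded Gli1 by 0.24, about 1 SD between probe sets. Of the 28 pairs among the 8 measured genes, 11 differed by more than that SD and 1, Shh against Gli2, by more than 2 SDs. The same count was not made over pairs of all measured genes, so it shows nothing particular to these 8.

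The 8 genes were read against all measured genes. Both values of all 8 exceeded the floor. All 8 had a difference above 0, as did 67.0% of all measured genes. At least 2-fold higher were 0 of 8, against 0.510% of all, and at least 2-fold lower 0 of 8, against 2.73%. At least 1.5-fold higher was 1 of 8, Shh, against 3.07% of all genes, and at least 1.5-fold lower were 0 of 8, against 5.11%. At least 25% higher were 7 of 8, all but Gli2, against 15.1% of all genes. That last count depends on the scaling, because Ptch1, Smo, Gli1 and Gli3 sit just past that threshold: it was 2 of 8 (Shh and Hhip, against 8.32% of all) after centring all genes on a median of 0. It was 3 of 8 after quantile normalisation, with Pth1r added, against 12.8% of all. Beyond the SD between probe sets were 7 of 8, against 26.5% of all genes, and also 7 of 8 after centring, against 14.8%. After centring, Smo, Gli1, Gli3 and Ptch1 (0.24 to 0.25) lay only just past this SD of 0.23. The median difference of the 8 genes was 0.35, against 0.10 for all measured genes.

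**Figure D2:**
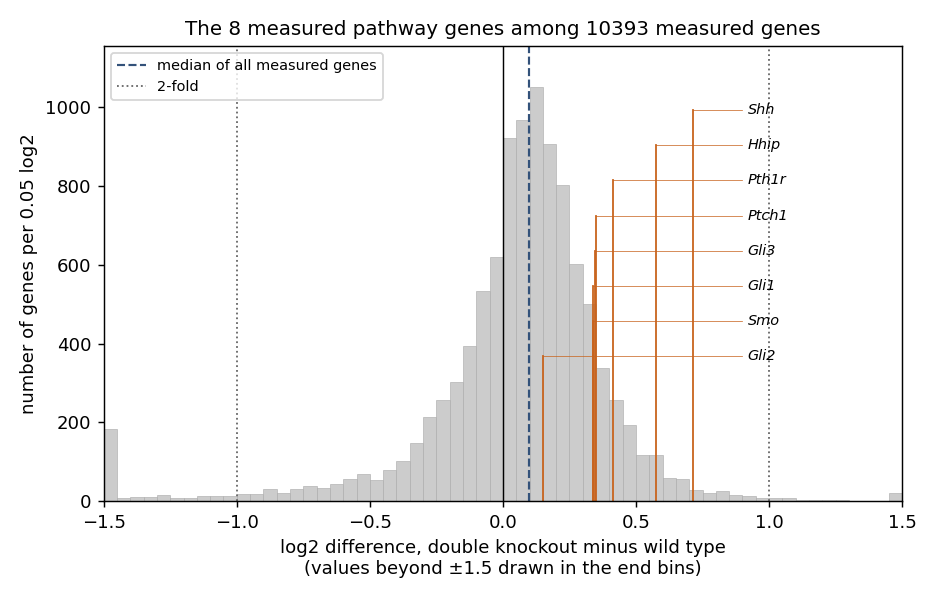
Histogram of the log2 difference (double knockout minus wild type) over 10393 measured genes, in steps of 0.05, with the 8 measured pathway genes as vertical lines whose heights only carry the labels. All 8 lie right of the dashed median of 0.10 and left of the dotted 2-fold line, and Gli2 lies closest to the median.

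Other genes of the 2 pathways were described from 5 lists holding 73 genes, of which 68 had a probe set of their own and 54 were measured. Of these 54, 35 were higher and 19 lower, against 67.0% of all measured genes above 0, so the share was near the background. At least 2-fold apart were 0 in either direction (0.510% of all genes higher, 2.73% lower), and 14 were at least 25% higher (15.1% of all). Their median was 0.11, beside 0.10 for all measured genes and 0.35 for the 8 genes above.

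Hedgehog targets beside Ptch1, Gli1 and Hhip had the highest median of the 5 lists, 0.35. Of 10 measured, 8 were higher (67.0% of all genes) and 2 lower, and 3 were at least 1.5-fold higher (3.07% of all). These 3 were the forkhead genes Foxc1, with a difference of 0.90 (6.31 against 7.21, 1.86-fold), Foxf1, with 0.73 (8.90 against 9.63, 1.66-fold), and Foxf2, with 0.68 (6.90 against 7.58, 1.61-fold). Foxf1 and Foxf2 are mesenchymal genes that respond to epithelial hedgehog ligand. The brightest on the list, the cell cycle genes Ccnd2 and Ccnd1, each differed by 0.16. Foxl1 and Foxd1 were below the floor on both arrays. The list was thus split, with forkhead genes differing more than the cyclins.

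Genes of ligand release and reception were mixed, with 3 of 6 measured genes higher, 3 lower and a median of 0.00, beside 67.0% of all genes higher. The secreted Scube proteins help release the lipid-bound ligand from cells. Scube3 was higher by 0.79 (7.32 against 8.11), Scube1 was higher by 0.64 (6.95 against 7.60), and Scube2 was at least 1.47-fold lower, from 6.74 to a value below the floor. Disp1, which exports the ligand, and the co-receptor Gas1 were the brightest and each differed by -0.10. The ligand gene Dhh, the acyltransferase gene Hhat, the co-receptor gene Cdon and Lrp2 were below the floor on both arrays.

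Among the genes of the cilium and the intracellular relay, 10 of 15 measured were higher and 5 lower, with a median of 0.10, which is near the 67.0% and the median of all genes. The GLI-binding inhibitor Sufu was higher by 0.39 (8.39 against 8.79), as was the ciliary receptor Gpr161, which restrains the pathway (6.27 against 6.66). The ciliary transport gene Ift88 was higher by 0.30. The brightest, the kinase genes Csnk1a1 and Prkacb, differed by -0.06 and 0.07.

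In the PTHrP arm, 6 of 11 measured genes were higher (67.0% of all genes) and 5 lower, with a median of 0.01, and 0 were at least 25% higher (15.1% of all). The 3 largest differences were all lower values. Mef2c, which drives chondrocyte hypertrophy and is also a muscle factor, was 10.05 in wild-type RNA and 9.05 in double-knockout RNA, 1.995-fold lower and so just short of 2-fold. Its relative Mef2d, also made in muscle, differed by -0.47 (9.44 against 8.97). Prkar1a, the regulatory subunit of the cAMP-dependent kinase, differed by -0.32 and was also the brightest of the list. The chondrocyte repressor gene Nkx3-2 was below the floor on both arrays. Pth1r was thus higher, and no measured gene of this list was higher by more than 0.18. The list holds transcripts of components of the arm, and whether signalling through Pth1r differed was not tested.

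Growth plate regulators of the Ihh and PTHrP loop had a median of 0.18, with 8 of 12 measured genes higher and 4 lower, beside 67.0% of all genes higher. Sox9, the chondrocyte master regulator, was higher by 0.76 (8.37 against 9.13), and Fgfr3, which slows chondrocyte proliferation, by 0.49 (8.02 against 8.51). Fgf18, a ligand of Fgfr3, went the other way, with a difference of -0.95 (7.48 against 6.52). The brightest, Bmpr1a and the heparan sulfate synthesis gene Ext1, differed by -0.11 and 0.14. Sox5, Bmpr1b and Gdf5 were below the floor on both arrays, and Runx2 had no probe set of its own.

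Markers of the cell types that make or receive these signals differed beside the 8 genes. In whole-jaw RNA, fewer cells of a type and less RNA per cell cannot be told apart. The counts below stand beside 67.0% of all measured genes with a difference above 0 and 2.73% at least 2-fold lower. All 10 skeletal muscle markers were at least 2-fold lower, led by the skeletal actin Acta1 (at least 64.5-fold) and the fast troponin Tnnt3 (at least 56.3-fold), and the summed linear signal of the 10 was 29914 in wild-type RNA and 384 in double-knockout RNA. All 6 markers of mandibular mesenchyme were higher, with a median of 0.54, led by Hand2 (0.84) and Msx1 (0.78), and their summed signal was 1474 and 2109. All 5 measured markers of hypertrophic chondrocytes were higher, with a median of 0.55 and a summed signal of 9699 and 12790, led by Panx3 (0.60) and Mmp13 (0.55). The brightest of them, Ibsp, gave 12.24 and 12.46, while Col10a1 gave 6.28 and 6.76, near the floor. Ibsp, Alpl, Mmp13 and Panx3 are also expressed by osteoblasts, so this list does not tell hypertrophic cartilage from bone. Of the chondrocyte markers, 4 of 5 measured were higher, with a median of 0.35 and a summed signal of 1720 and 2163, led by Sox9 and Col2a1 (0.49). Acan went the other way, with a difference of -0.32 (7.64 against 7.32). Matn1, Col9a1, Cnmd and Matn3, which are cartilage matrix or cartilage surface genes, were below the floor on both arrays, like Ihh.

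All 5 measured osteoblast markers were higher, beside 67.0% of all measured genes. Their median was 0.58 and their summed signal 7695 and 9192, led by Omd (0.84) and Phex (0.65). The 5 measured osteoclast markers were all higher too, with a median of 0.93 and a summed signal of 5977 and 9137. Atp6v0d2 (1.08) and Dcstamp (1.02) led them, while Calcr was below the floor. On the epithelial side, all 5 measured tooth markers were higher (median 0.36, summed signal 10029 and 12539), led by Sp6 (0.90) and Dspp (0.81). All 5 markers of stratified epithelium were higher too (median 0.35, summed signal 5053 and 6044), led by Cdh1 (0.69) and Trp63 (0.49). All 6 salivary gland markers were at least 2-fold higher, beside 0.510% of all genes (median 3.28, summed signal 1840 and 15588). Pip (4.12) and Smgc (3.51) led them. The 2 measured Schwann cell markers, Mbp (0.53) and Sox10 (0.43), were higher, with a summed signal of 171 and 238. Of the hair follicle markers, Krt71 differed by 0.13, Lhx2 was at least 1.26-fold lower, and Krt27, Krt35, Foxn1 and Edar were below the floor; their summed signal was 396 and 398.

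The difference of 0.71 in Shh was larger than the medians of the tooth and stratified epithelium markers and smaller than that of every salivary gland marker. The differences of Ptch1, Smo, Gli1 and Gli3, from 0.34 to 0.35, were close to the medians of the chondrocyte, tooth and stratified epithelium markers and below those of hypertrophic chondrocytes, osteoblasts and mandibular mesenchyme. The part of these tissues in the differences of the pathway genes was not tested.

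**Figure D3:**
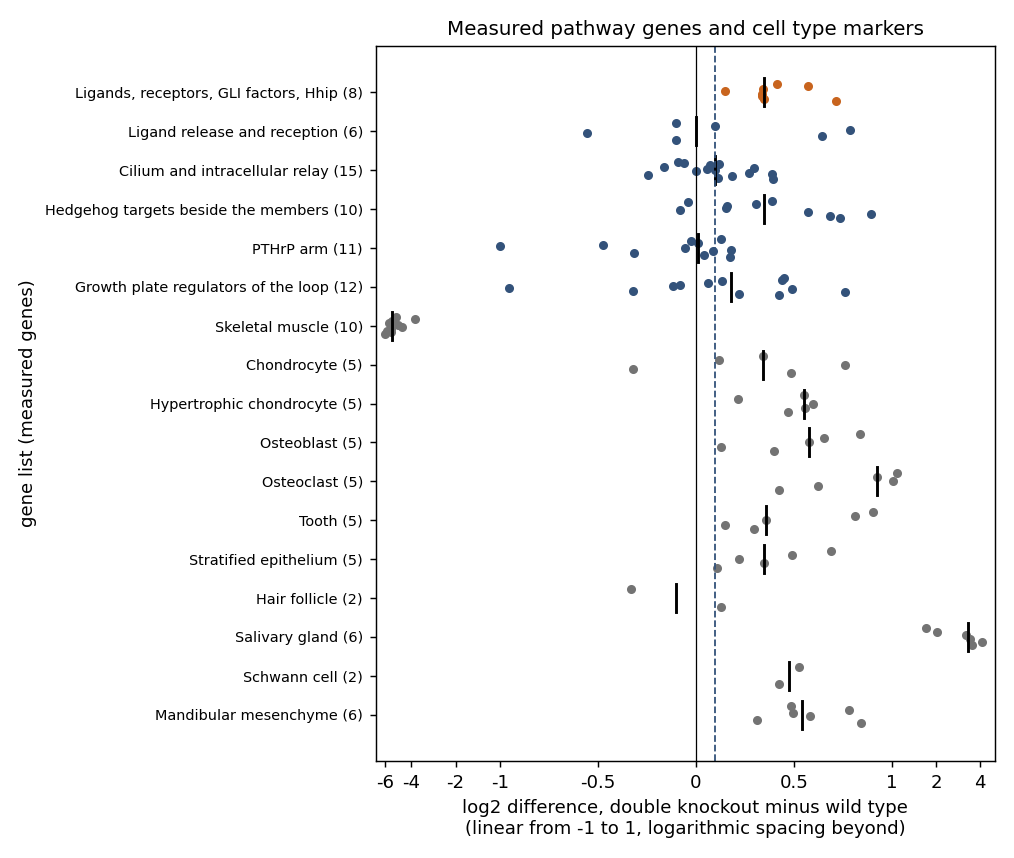
Log2 difference (double knockout minus wild type) of each measured gene, with the 8 pathway genes in the top row, the 5 lists of other pathway genes next and the cell type markers beneath; black bars are list medians, the dashed line is the median of all measured genes, and genes with 1 side below the floor are drawn at their bound. The top row is centred at 0.35, near the chondrocyte (0.35) and tooth (0.36) markers, between skeletal muscle at -5.44 and salivary gland at 3.28.

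All 8 differences stayed above 0 under the settings in which the gene was measured, though changing the floor or the probe set choice could hardly have reversed one. Centring all genes on a median of 0 lowers every difference by the same 0.10, so it leaves the position among all genes as it was. After it Shh was 0.62, Hhip 0.48, Pth1r 0.31, Ptch1 0.25, Gli3 0.25, Gli1 0.24, Smo 0.24 and Gli2 0.05. Gli2 was thus nearly at the median of all genes.

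**Figure D4:**
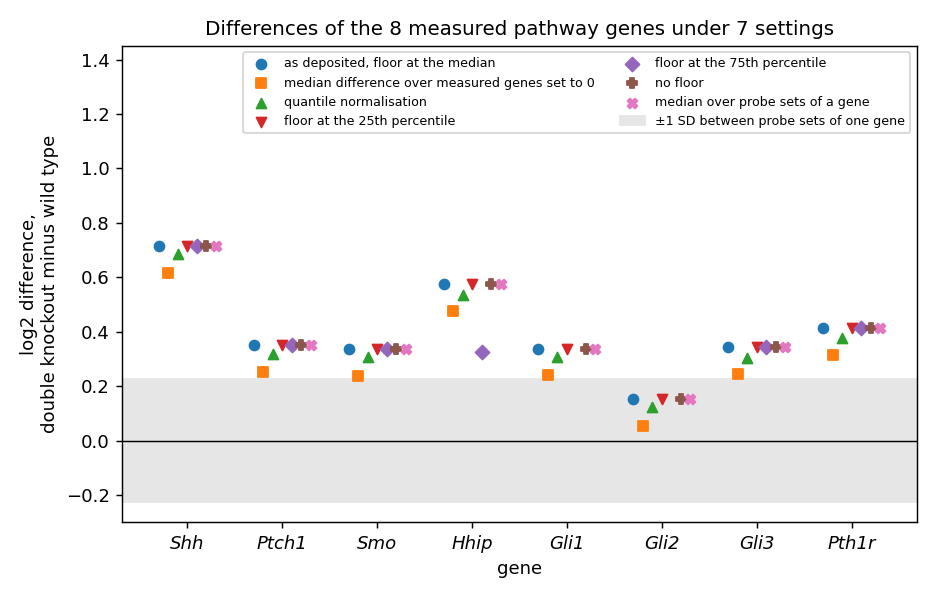
Log2 difference (double knockout minus wild type) of each measured pathway gene under 7 settings of scaling, floor and probe set choice; the grey band is 1 SD between probe sets of one gene (0.23). All points lie above 0, Gli2 lies inside the band, and Gli1 and Gli2 have no point for the 75th percentile floor, since both of their values were under it.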

How the data were processed

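Total RNA from E18.5 mandibles was extracted with Trizol and 6 µg of it gave biotin-labelled cRNA, per the labels' protocols. The deposited values are log2 signals, 1 per probe set and array; the base of the logarithm was read from their range (1.42 to 13.35), and the submitters' processing notes name MAS5 without a version. Log2 values with the same minimum on both arrays (1.42) are not the usual output of MAS5, so how probes were summarised remains unknown. Background correction, normalization between arrays and the step that took logarithms are not given in the sources used here. The 2% trimmed means of the linear signals had a ratio of 1.02 (double knockout over wild type), within the 5% allowed, so the arrays were compared as deposited. Of 35557 probe sets, 21789 named 1 gene in GEO's platform annotation, 1621 several and 12147 none; symbols were checked by Entrez identifier in RefSeq (GRCm38.p6), and 0 changed. For a gene with several probe sets, the one of highest mean linear signal was used. A gene above the floor on at least 1 array was called measured, and with 1 side at the floor its fold is a lower bound.

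The genes and lists were chosen with earlier results of these data known. Named were the 10 genes, the targeted genes, the 3 largest differences and the 2 brightest of each pathway list, the 2 largest of each marker list and markers below the floor; further genes below the floor or without a probe set were added once their values were known. All precision is limited by the number of arrays. The calculation was tested on simulated data. Python 3.11.15, numpy 2.4.6 and pandas 2.3.3 were used.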

Additional observations from a re-analysis of the deposited data

How the results depend on the processing

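No paired analysis was possible because each genotype has 1 array, and no array could be left out. The 6 alternatives of scaling, floor and probe set choice kept all measured genes higher in the double knockout. The median of these genes stayed between 0.25 (all genes centred on a median of 0) and 0.35. Gene by gene, 45 of the 46 values moved by less than the SD between probe sets, and the other was Hhip under the 75th percentile floor. Values under the 25th percentile floor, no floor and the other probe set choice could not move, so they add no check. Centring lowers each value by 0.10, less than the SD of 0.23, so its outcome was fixed too. Among the genes still measured, the 75th percentile floor changed Hhip alone. That leaves quantile normalisation as the only setting free to move each value. Under the 25th percentile floor or no floor, Ihh entered with a difference of 0.04. At 1.5-fold 1 of the 8 genes was apart from the wild type (3.07% of all genes higher, 5.11% lower). At a threshold of 25% higher 7 were (15.1% of all). Of the other pathway genes, 0 were 2-fold apart as deposited (0.510% of all genes higher, 2.73% lower). There were 2 after centring all genes on a median of 0 and 1 after quantile normalisation. At 1.5-fold 8 were apart (3.07% of all higher, 5.11% lower). At the 25% threshold 18 were, of which 14 were higher (15.1% of all). Under the 75th percentile floor 21 of 33 measured were higher, near the 67.2% of all genes.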

Other observations

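Probe sets that name several genes entered no comparison, and 2 of them name a gene of the pathway lists. The probe set shared by Samd1 and Prkaca, the latter a catalytic subunit of the cAMP-dependent kinase that opposes hedgehog signalling and acts below Pth1r, was 9.02 in wild-type and 7.50 in double-knockout RNA, 2.86-fold lower. Which of the 2 genes this reflects cannot be told from the probe set. The related Prkacb, with a probe set of its own, differed by 0.07. The probe set shared by Gnas, which encodes the G protein subunit that couples Pth1r to cAMP, and its antisense gene Gnasas1 was 11.07 and 10.88, a difference of -0.18.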
